A study of Mus musculus with 4 samples.

Results

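The genes described here are 10 genes of zinc handling, taken from a table of 56748 mouse genes by their symbols: the exporters Slc30a8, Slc30a1, Slc30a5 and Slc30a7, the importers Slc39a6, Slc39a8 and Slc39a14, the metallothioneins Mt1 and Mt2, and the transcription factor Mtf1. All 10 had a row in the table, and all 10 passed the filter on low counts that left 15665 genes for testing. Poly(A)-selected RNA was sequenced from primary pancreatic islets of 6- to 8-week-old male C57BL/6J mice. The high-glucose group was held at 25 mM glucose for 2 h and the low-glucose group at 2.5 mM for 2 h, with 2 libraries in each group, and both groups carried 100 µg/mL cycloheximide, a blocker of translation, during the last 15 min. By the study's methods all islets recovered overnight after isolation and were then deprived of glucose for several hours, after which glucose was raised to 1 of the levels, so the low-glucose islets had also been given glucose. In those methods each mouse gave islets to both levels, and a replicate pools islets of several mice. On the source of the RNA they say only that islets came from the same culture conditions. Total counts per library were 17279505 to 19136068, all 8 beta cell and all 5 alpha cell markers passed the filter, and the markers of acinar cells summed to 610 and 223 CPM at high glucose and 256 and 275 CPM at low glucose. CPM are counts scaled to a common library size with TMM composition factors.

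Zinc leaves the cytosol through transporters of the SLC30 (ZnT) family, which carry it out of the cell or into organelles, and enters the cytosol through transporters of the SLC39 (ZIP) family. Beta cells are rich in zinc because insulin is stored in the secretory granules as crystals of zinc-bound hexamers, and Slc30a8 (ZnT8) loads the granules with that zinc. Metallothioneins are small cysteine-rich proteins that bind zinc and copper in the cytosol. MTF-1, the product of Mtf1, senses zinc and switches on the metallothionein genes and Slc30a1 by binding metal response elements in their promoters, so transcripts of Mt1, Mt2 and Slc30a1 are widely read as markers of the free zinc of a cell.

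Slc30a1 (ZnT1), the exporter that carries zinc across the plasma membrane out of the cell, had the largest difference among the 10 genes. Its level was 53.1 and 42.6 CPM in the high-glucose libraries, against 90.5 and 140 CPM in the low-glucose libraries. Both high-glucose values lay below both low-glucose values, and the high-glucose mean was 47.9 ± 7.45 CPM against 115 ± 34.7 CPM at low glucose (SD, n = 2 each). The log2 fold change of high over low glucose was -1.26 (SE 0.28, 95% interval -1.91 to -0.61), with an adjusted p of 0.400 in the quasi-likelihood test of edgeR without a block. With the replicate number as a block the log2 fold change was -1.24 (SE 0.29) and the adjusted p of edgeR was 0.00116, and DESeq2 without a block gave an adjusted p of 0.00729. Slc30a1 was therefore lower at 25 mM in the blocked fit and in DESeq2, and did not pass in edgeR without the block.

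The background of that call differs by fit. Without the block edgeR placed 0 of 15665 genes (0.0%) past an adjusted p of 0.05, although 1643 (10.5%) had an unadjusted p under 0.05, and limma-voom without the block also placed 0. The blocked fit placed 785 genes (5.01%) as lower and 290 (1.85%) as higher, and DESeq2 placed 126 (0.804%) as lower. Of the 10 zinc genes, Slc30a1 was the 1 that passed in the blocked fit and in DESeq2.

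The difference in Slc30a1 was unequal between the same-numbered libraries. The log2 ratio of high over low glucose was -0.77 in replicate 1 and -1.71 in replicate 2. High-glucose replicate 2 held the lowest value of the 4 and low-glucose replicate 2 the highest. Genes near the exonic length of Slc30a1 (0.8 to 1.25 times it), 3825 in number, had a median log2 ratio of -0.12 in replicate 2. Without low-glucose replicate 2 the log2 fold change of Slc30a1 was -0.87 with an adjusted p of 0.998 in edgeR without the block, and without high-glucose replicate 1 it was -1.43 with an adjusted p of 0.00954. The last fit sets 1 high-glucose library, the one that stood apart, against the low-glucose pair. Its spread rests on 1 residual degree of freedom from that pair and 7.02 from the trend over genes. The lone library is assumed to vary alike.

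**Figure D1:**
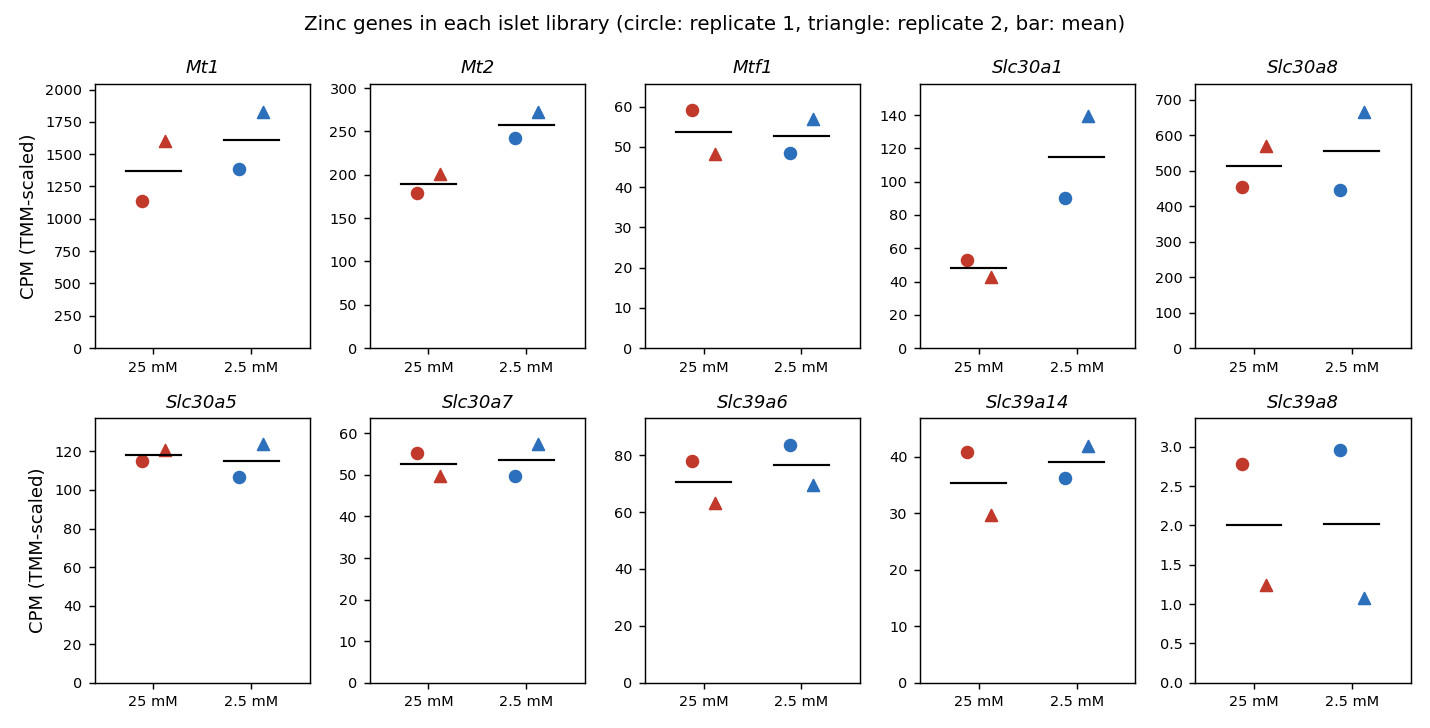
Levels in CPM (scaled by TMM factors, vertical axes from 0) of the 10 zinc genes in each of the 4 libraries. Circles are replicate 1, triangles replicate 2 and bars the mean of 2 libraries, with 25 mM glucose on the left of each panel and 2.5 mM on the right. Both 25 mM points lie below both 2.5 mM points for Slc30a1 and for Mt2, and the groups overlap for the other 8 genes.

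Mt2, the less abundant of the metallothionein pair, was the other gene whose groups did not overlap. Its values were 178 and 201 CPM at high glucose, against 242 and 273 CPM at low glucose. The log2 ratio was -0.44 in replicate 1 and -0.44 in replicate 2, and the fitted log2 fold change was -0.44 (SE 0.21, 95% interval -0.93 to 0.05). It did not pass in edgeR without the block (adjusted p = 0.494) or with it (adjusted p = 0.380). Among all genes tested 25.9% had both high-glucose values below both low-glucose values, so 2 of 10 zinc genes doing so is no more than the background.

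Mt1, the main metallothionein of these islets, had 1139 and 1605 CPM at high glucose, against 1387 and 1825 CPM at low glucose. The groups overlapped, although each high-glucose library was below the low-glucose library of the same number, with log2 ratios of -0.28 and -0.19. The fitted log2 fold change was -0.23 (SE 0.25, 95% interval -0.83 to 0.37), with an adjusted p of 0.740 in edgeR without the block and 0.625 with it. Replicate 2 stood above replicate 1 in each group.

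Both metallothionein genes are short, and the ratios of replicate 2 moved with gene length. High-glucose replicate 2 stood apart from the other libraries, with correlations of log2 CPM of 0.938 to 0.960 against 0.967 to 0.981 among the others, and in replicate 2 short genes had higher ratios of high over low glucose than long ones. Genes near the exonic length of Mt1 had a median log2 ratio of 0.58 in replicate 2, and those near the length of Mt2 had 0.52, while both metallothioneins were below 0. In replicate 1 the medians ran the same way but were smaller, at 0.10 and 0.06, against -0.12 near the length of the long gene Slc30a7. With the length trend removed and the replicate block, the log2 fold change was -0.70 for Mt2 (adjusted p = 0.00622) and -0.50 for Mt1 (adjusted p = 0.0313), both in edgeR. That fit placed 777 of all genes (4.96%) as lower. With the length trend removed and no block neither gene passed.

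Together the metallothioneins took 0.140% (95% Wilson interval 0.139 to 0.142) and 0.167% (0.165 to 0.169) of all counts at high glucose, against 0.169% (0.167 to 0.171) and 0.204% (0.202 to 0.207) at low glucose. Both high-glucose shares lay below both low-glucose shares, with high-glucose replicate 2 just under low-glucose replicate 1. The insulin genes Ins1 and Ins2 took 7.61% and 16.1% of counts at high glucose, against 7.03% and 9.21% at low glucose. With those reads left out, the metallothionein shares were 0.152% and 0.199% at high glucose, against 0.182% and 0.225% at low glucose, and the groups overlapped. Mt1 supplied 86.5% and 88.9% of the metallothionein reads at high glucose and 85.1% and 87.0% at low glucose.

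The transcripts of Slc30a1, Mt1 and Mt2 are those that MTF-1 is known to drive, so the bases around their start sites are shown where they match the core of the metal response element. The 300-base windows of RefSeq on GRCm38.p6, which run from 250 bases before a gene's start to 50 after it, were searched on both strands for TGCACNC and TGCGCNC, and matches were allowed to overlap. Windows were at hand for 7 of the 10 genes. Mt2 had 4 matches, Mt1 had 3, Slc30a1 had 2, and Slc30a5 had 1. Of 32851 windows, 25.7% had at least 1 match, 7.11% at least 2, 1.97% at least 3 and 0.517% at least 4. The capitals below mark the match, as read on the plus strand, which is the strand of all 3 genes, and where the capitals begin with G the element lies on the opposite strand.
Mt1, chr8:94179057-94179081: gtcccgctgTGCACACtggcgctcc
Mt1, chr8:94179082-94179106: agggagctcTGCACTCcgcccgaaa
Mt1, chr8:94179100-94179124: cccgaaaagTGCGCTCggctctgcc
Mt2, chr8:94172386-94172410: catcgcctcTGCACCCggcccctcg
Mt2, chr8:94172481-94172505: cagacccttTGCGCTCagctccttt
Mt2, chr8:94172559-94172583: ggggagggcGTGTGCAggctctgtc
Mt2, chr8:94172613-94172637: attcgggtcGTGCGCAggcccaggg
Slc30a1, chr1:191906729-191906753: gggggttccGAGTGCAaagcaaagt
Slc30a1, chr1:191906802-191906826: ctccgggccGAGCGCAgtcgccgcg

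The first capital of the Mt1 matches lies at -23, 3 and 21 from the RefSeq start. Those of Mt2 lie at -223, -128, -50 and 5, and those of Slc30a1 at -43 and 31 from their RefSeq starts. These RefSeq positions count the start base as 1, and the GENCODE vM21 positions that follow count it as 0. From the start of the vM21 transcript of the best support level, the first capitals lie at -16, 9 and 27 for Mt1. On that count they lie at -269, -174, -96 and -42 for Mt2, and at -29 and 44 for Slc30a1. For Mt1, vM21 also annotates later starts, and from 1 of them the matches lie at -145, -120 and -102. Slc39a8 has 2 windows, of which 1 holds 1 match and the other 0, and the windows of Slc30a7 and Mtf1 hold 0. A match is a stretch of letters and not a measured binding site.

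Mtf1 itself had 59.2 and 48.3 CPM at high glucose, against 48.4 and 56.8 CPM at low glucose. The groups overlapped and the replicates went opposite ways, with log2 ratios of 0.29 and -0.23. The fitted log2 fold change was 0.03 (SE 0.23, 95% interval -0.50 to 0.57) with an adjusted p of 0.968 in edgeR without the block.

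Slc30a8, the granule transporter and the most abundant transporter of the set, had 455 and 570 CPM at high glucose, against 447 and 667 CPM at low glucose. The groups overlapped, and in each group replicate 2 was higher than replicate 1. The log2 ratio was 0.03 in replicate 1 and -0.23 in replicate 2, and the fitted log2 fold change was -0.12 (SE 0.26, 95% interval -0.74 to 0.50, adjusted p = 0.881 in edgeR without the block). Without low-glucose replicate 2 the log2 fold change was 0.26, and without high-glucose replicate 1 it was 0.04. Slc30a8 is expressed in beta and alpha cells, and most of the summed beta cell markers was insulin RNA. Ins1 and Ins2 together stood at 71467 and 174192 CPM at high glucose, against 67846 and 94527 CPM at low glucose. The difference in that sum was larger in replicate 2 than in replicate 1. Both genes passed as higher in the blocked fit of edgeR, which called 1.85% of all genes higher, and neither passed without the block. The 5 beta cell markers other than Ins1, Ins2 and the hormone gene Iapp summed to 1972 and 3027 CPM at high glucose, against 1661 and 2944 CPM at low glucose. The alpha cell markers summed to 24173 and 38960 CPM at high glucose, against 28421 and 31310 CPM at low glucose. The last 2 sums overlapped between the groups. The part of these cells in the level of Slc30a8 was not tested. In bulk libraries, a change in the number of cells of a type and a change in RNA per cell cannot be told apart.

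The level of the granule exporter relative to the plasma membrane exporter did not overlap between the groups. Per exonic length (TPM), Slc30a8 stood at 22.8 and 35.6 times the level of Slc30a1 in the high-glucose libraries, against 13.1 and 12.7 times in the low-glucose libraries. Both high-glucose ratios were above both low-glucose ratios. Slc30a8 itself overlapped between the groups. The ratio, and the share of Slc30a1 given below, use the same Slc30a1 reads, so they are not separate from the difference in Slc30a1. Slc30a8 and Slc30a1 also differ in exonic length. In replicate 2 genes near the length of Slc30a8 had a median log2 ratio of high over low glucose of 0.43, against -0.12 near the length of Slc30a1. In replicate 1 the medians were 0.03 and -0.04. The part of the length trend in this ratio, and in the shares that follow, was not tested. Slc30a1 took 6.18% (95% Wilson interval 5.83 to 6.55) and 4.50% (4.20 to 4.83) of all SLC30 family reads at high glucose, against 10.4% (9.98 to 10.9) and 11.9% (11.5 to 12.4) at low glucose. Slc30a8 took 53.0% and 60.3% at high glucose, against 51.6% and 57.0% at low glucose, so the groups overlapped for its share. An exact permutation test of 2 libraries against 2 cannot give a p below 0.333, so none is attached to these ratios and shares.

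**Figure D2:**
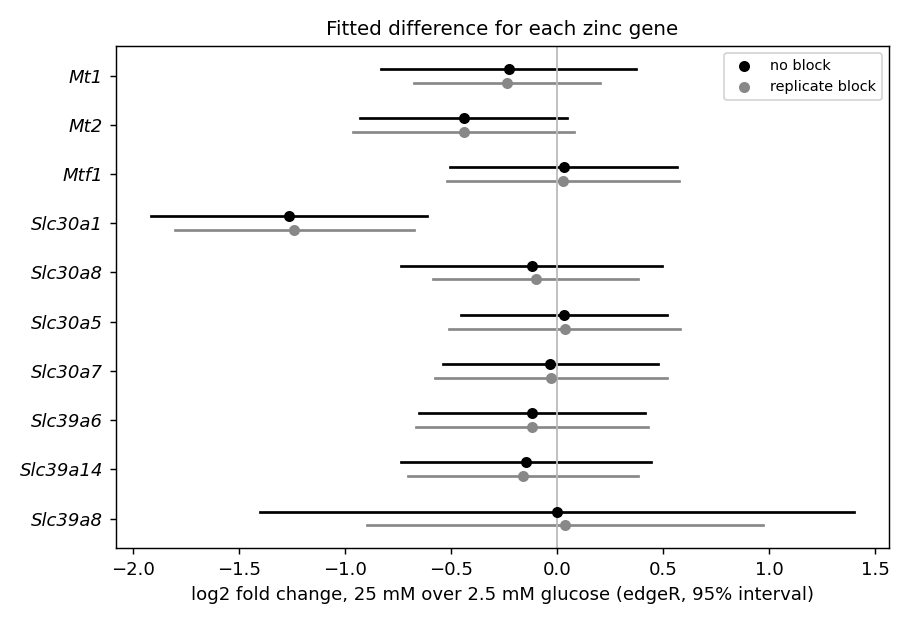
Log2 fold change of 25 mM over 2.5 mM glucose (horizontal axis) for the 10 zinc genes in edgeR, without a block (black, upper point of each pair) and with the replicate number as a block (grey, lower point). Lines are 95% intervals over 2 libraries per group. The intervals of Slc30a1 are the 1 pair that excludes 0, at -1.91 to -0.61 without the block.

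Slc30a5 and Slc30a7, which load zinc into the early secretory pathway and the Golgi, where zinc enzymes such as alkaline phosphatases are assembled, overlapped between the groups. Slc30a5 had 115 and 121 CPM at high glucose, against 107 and 124 CPM at low glucose. Slc30a7 had 55.3 and 49.7 CPM at high glucose, against 49.8 and 57.4 CPM at low glucose. For both genes the high-glucose library was above the low-glucose library in replicate 1 and below it in replicate 2. The log2 fold change was 0.03 (95% interval -0.45 to 0.52) for Slc30a5 and -0.03 (95% interval -0.54 to 0.48) for Slc30a7, so differences of up to about 0.5 log2 units in either direction lie within these intervals.

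The importers overlapped between the groups. Slc39a6 (ZIP6), a plasma membrane importer, had 78.0 and 63.1 CPM at high glucose, against 83.4 and 69.6 CPM at low glucose. It was lower at 25 mM in both replicates, by log2 ratios of -0.10 and -0.14, and its replicates differed more than the groups did. Slc39a14 (ZIP14), which carries zinc, iron and manganese, had 40.9 and 29.7 CPM at high glucose, against 36.2 and 41.9 CPM at low glucose. Its lowest value was that of high-glucose replicate 2, and its log2 ratios were 0.17 and -0.50. The fitted log2 fold change was -0.12 (95% interval -0.65 to 0.42) for Slc39a6 and -0.15 (95% interval -0.73 to 0.44) for Slc39a14.

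Slc39a8 (ZIP8), which carries zinc, manganese and cadmium, was rare. It had 55 and 22 reads at high glucose, against 53 and 20 reads at low glucose. Those reads were 2.78 and 1.24 CPM at high glucose, against 2.96 and 1.07 CPM at low glucose. The level followed the replicate number and not the glucose level. The summed stellate cell markers did so too, at 395 and 104 CPM at high glucose and 423 and 85.5 CPM at low glucose. So did the duct markers, at 394 and 218 CPM at high glucose and 455 and 126 CPM at low glucose. The endothelial markers ran the other way, at 54.5 and 152 CPM at high glucose and 47.4 and 168 CPM at low glucose. Their part in the level of Slc39a8 was not tested. The 95% interval of its log2 fold change, -1.40 to 1.40, was the widest of the 10.

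Taken over the 10 genes, the median log2 fold change was -0.12, beside -0.01 over all genes tested. It was above 0, at 0.055 beside 0.024 over all genes, in the blocked fit with the length trend removed. In both replicates 4 of the 10 were lower at 25 mM (Slc30a1, Mt1, Mt2 and Slc39a6), 0 were higher, and 6 went opposite ways, whereas 35.9% of all genes were lower in both and 32.1% higher in both. Apart from Slc30a1, adjusted p of edgeR ran from 0.494 to 1.000 without the block and from 0.380 to 0.982 with it.

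**Figure D3:**
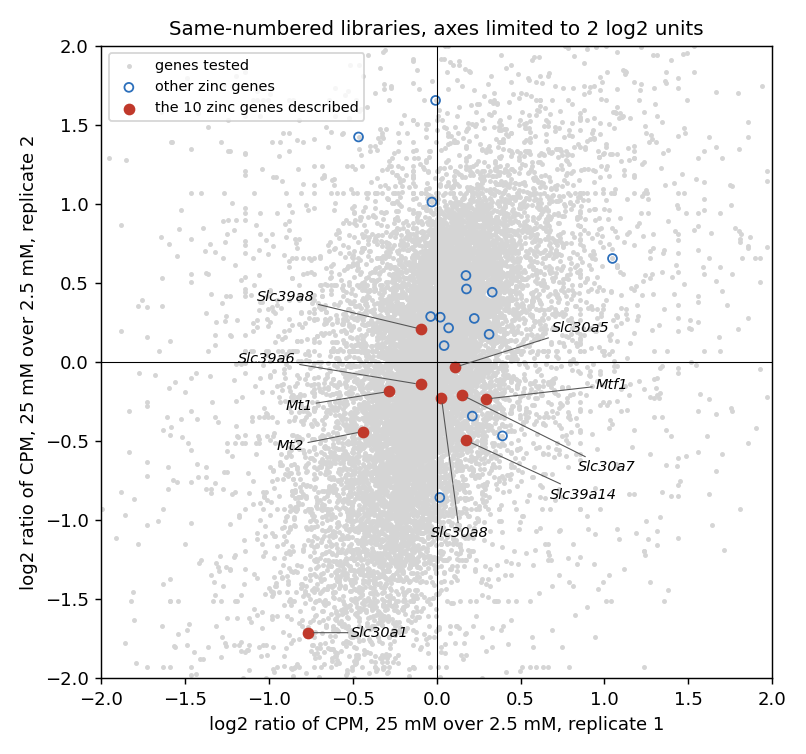
Log2 ratio of CPM at 25 mM over 2.5 mM glucose in replicate 1 (horizontal axis) and replicate 2 (vertical axis), within 2 log2 units, for the 10 zinc genes (red), the 16 other zinc genes tested (open blue) and all genes tested within those limits (grey). Slc30a1 lies lowest, at -0.77 and -1.71, and Mt1, Mt2 and Slc39a6 are the other red points below 0 on both axes.

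The levels of the 10 genes spanned more than the differences between the groups. Per exonic length, Mt1 averaged 2820 ± 44.2 TPM at high glucose and 3855 ± 495 TPM at low glucose (SD, n = 2 each), Mt2 averaged 843 ± 146 TPM at high glucose and 1314 ± 24.2 TPM at low glucose, and Slc30a8 averaged 673 ± 66.6 TPM at high glucose and 842 ± 183 TPM at low glucose. These genes stood at the 99.9th, 99.7th and 99.5th percentile of all genes tested by TPM. The values did not overlap between neighbours in this order within either group. TPM, unlike the CPM used here, is not scaled for the share that the insulin genes take of each library, so differences between the groups are read from CPM.

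A middle tier held Slc30a1, Slc39a6 and Slc30a5. At high glucose Slc39a6 averaged 46.7 ± 18.5 TPM, Slc30a5 42.5 ± 9.34 TPM and Slc30a1 24.6 ± 9.90 TPM, whereas at low glucose Slc30a1 was the first of the 3 at 65.4 ± 15.6 TPM, followed by Slc39a6 at 56.8 ± 10.9 TPM and Slc30a5 at 47.4 ± 1.88 TPM. At high glucose both Slc30a1 libraries lay below all values of Slc39a6 and Slc30a5, which overlapped each other. At low glucose Slc30a1 and Slc39a6 overlapped, and both lay above Slc30a5. Below them, Mtf1 averaged 16.2 ± 6.35 TPM at high glucose and 17.7 ± 0.861 TPM at low glucose, Slc30a7 12.6 ± 4.13 TPM at high glucose and 14.5 ± 0.507 TPM at low glucose, and Slc39a14 9.10 ± 4.24 TPM at high glucose and 11.1 ± 0.419 TPM at low glucose. Neighbours among these overlapped at high glucose but not at low glucose. Slc39a8 was last, at 0.741 ± 0.551 TPM at high glucose and 0.809 ± 0.575 TPM at low glucose, at the 7.26th percentile of genes tested.

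The per-length level of Mt1 depends on the length that it is divided by. The table gives Mt1 an exonic length of 1246 bases, which equals the whole span of the gene, introns included, while its longest GENCODE vM21 transcript of the best support level has 549 bases. For Mt2 the lengths are 588 and 511 bases, and for Slc30a8 both are 1971 bases. Averaged over the libraries, Mt1 stood at 4.41 times the level of Slc30a8 with the table's lengths and at 10.01 times with the transcript lengths, an alternative chosen after seeing the data. Mt1 remained above Slc30a8 in all 4 libraries under both.

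Mt1 (ENSMUSG00000031765) and Mt2 (ENSMUSG00000031762) are neighbours on chromosome 8 and run in the same direction. The deposited table places Mt2 at 94899292 to 94900196 and Mt1 at 94905710 to 94906955, a gap of 5513 bases. It places Slc30a1 (ENSMUSG00000037434) on chromosome 1 at 191638879 to 191645359 and Slc30a8 (ENSMUSG00000022315) on chromosome 15 at 52158949 to 52199194. These positions are not those of mm10, the build that the labels name, nor of the GRCm38.p6 windows above, so they are given as the table has them, without a build. Slc30a1 overlaps the antisense gene 1700034H15Rik by 761 bases, and that gene had 37 and 15 reads at high glucose and 20 and 21 reads at low glucose, against 755 to 2597 reads for Slc30a1. Slc39a6 overlaps Elp2 by 952 bases, Mtf1 overlaps 1110065P20Rik by 721 bases and Mt2 overlaps Gm45774 by 749 bases, each on the opposite strand. Elp2 had 1736 and 1603 reads at high glucose and 1505 and 1602 reads at low glucose, against 1118 to 1545 reads for Slc39a6. The gene 1110065P20Rik had 477 and 619 reads at high glucose and 365 and 359 reads at low glucose, against 856 to 1172 reads for Mtf1. Gm45774 had 10 to 19 reads. Whether the counting used strand is not given in the sources used here, so reads in those stretches cannot be told apart.

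The other zinc genes were 21 in number, the rest of both transporter families together with the zinc handlers Mt3, Mt4, Tmem163 and Cbwd1. Of the 21, 16 passed the filter, while Slc30a2, Slc30a3 and Slc30a10 had too few reads and Slc39a12 and Mt4 had none in any library. In edgeR 0 of the 16 passed, with or without the block, and the lowest adjusted p was 0.535 without the block and 0.449 with it. At an unadjusted p under 0.05, 0 of the 16 passed without the block, and DESeq2 also placed 0. Their median log2 fold change was 0.24, above that of all genes. In 6 of the 16 (Slc30a6, Slc30a9, Slc39a1, Slc39a7, Mt3 and Tmem163) both high-glucose values were above both low-glucose values, in 0 below, and 22.4% of all genes were above in this way. Mt3 rests on 16 and 18 reads at high glucose, against 7 and 12 reads at low glucose. Slc39a2, Slc39a4 and Slc39a5, which also enter the median, were rare too, with 4 to 73 reads in a library.

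These genes include further exporters and importers. Slc39a1 (ZIP1), a widely expressed importer of the plasma membrane, had 96.1 and 87.0 CPM at high glucose, against 76.4 and 64.1 CPM at low glucose, with a log2 fold change of 0.38 (SE 0.21, adjusted p = 0.535 in edgeR without the block). Tmem163, a zinc transporter of synaptic vesicles and other acidic organelles, had 87.2 and 112 CPM at high glucose, against 77.1 and 81.1 CPM at low glucose. Slc30a9, the zinc exporter of mitochondria, had 88.5 and 98.7 CPM at high glucose, against 84.3 and 85.0 CPM at low glucose, and was the 1 gene of the 16 that passed when the length trend was removed in the blocked fit, which called 3.75% of all genes higher (log2 fold change 0.60, adjusted p = 0.0411). Slc30a4, an endosomal exporter, had 74.8 and 44.6 CPM at high glucose, against 73.8 and 80.7 CPM at low glucose, with log2 ratios of 0.02 in replicate 1 and -0.86 in replicate 2. Without high-glucose replicate 1 the log2 fold change of Slc30a4 was -0.79 in edgeR without the block. That fit holds 1 high-glucose library, and its spread comes from the low-glucose pair and the trend over genes. These 4 genes were singled out after their values were seen.

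Summed over each family, SLC30 transcripts were 860 and 946 CPM at high glucose, against 866 and 1171 CPM at low glucose. SLC39 transcripts were 521 and 470 CPM at high glucose, against 474 and 459 CPM at low glucose. Both sums overlapped between the groups.

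Metals other than zinc and steroid hormones also act on metallothionein genes, so genes of those pathways were read beside them. Of 12 genes of copper and iron handling, all tested, the blocked fit placed 2 as lower and 0 as higher at 25 mM, beside 5.01% lower and 1.85% higher of all genes, and edgeR without the block placed 0. Atp7a, a copper exporter, had 63.3 and 13.2 CPM at high glucose, against 108 and 141 CPM at low glucose, with a blocked log2 fold change of -2.07 (adjusted p = 2.88e-08). Most of that difference lay in replicate 2, where the log2 ratio was -3.42 against -0.77 in replicate 1, and DESeq2 with the block did not pass it (adjusted p = 0.409). Tfrc, the transferrin receptor that takes up iron, had 221 and 178 CPM at high glucose, against 298 and 404 CPM at low glucose (blocked log2 fold change -0.81, adjusted p = 0.0382 in edgeR and 0.146 in DESeq2). Of 7 tested genes of a list of 8 that glucocorticoids induce, the blocked fit placed 1 as lower, the transcription factor Klf9, with 73.2 and 55.9 CPM at high glucose, against 114 and 136 CPM at low glucose (log2 fold change -0.96, adjusted p = 0.0176 in edgeR and 0.0630 in DESeq2 with the block).

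Genes whose 4 values ran most like those of a member were found by the distance between log2 CPM values centred on the mean of the 4 libraries. Near Slc30a1 were Sox5, Sipa1l2, Crebzf and Gm42809, at distances of 0.10 to 0.20 log2 units. Sox5, the nearest, had log2 ratios of -0.90 and -1.81 in replicates 1 and 2. For Mt1 the nearest were Tedc2, Nkx2-2, Cidea, Larp7 and Yju2, at 0.04 to 0.07 log2 units, and for Slc30a8 they were Syndig1l, Fhdc1, Frmd4b, Mapk12 and Col4a2, at 0.01 to 0.08. With 4 libraries such likeness is only a description of these values.

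**Figure D4:**
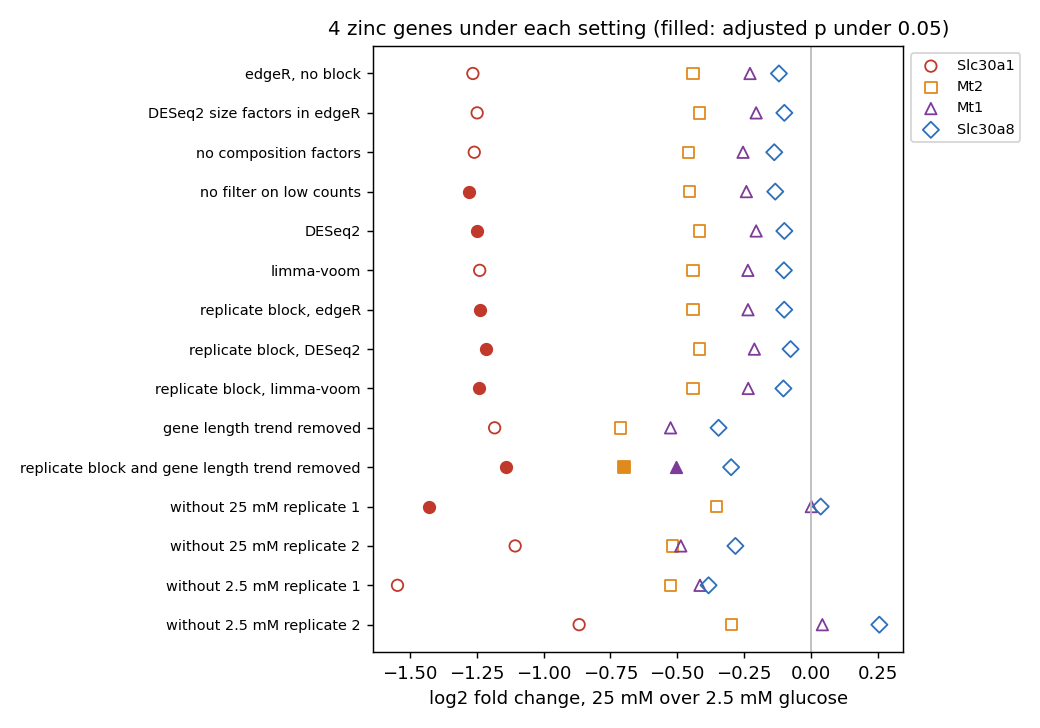
Log2 fold change of 25 mM over 2.5 mM glucose (horizontal axis) of Slc30a1, Mt2, Mt1 and Slc30a8 under each of 15 settings of the fit (rows), with filled symbols where the adjusted p was under 0.05. Slc30a1 runs from -1.55 to -0.87, with 7 filled symbols. Mt2 stays below 0 throughout, and Mt1 and Slc30a8 are above 0 in 2 settings each.

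Across those settings Slc30a1 was lower at 25 mM in all 15, and Mt2 in all 15 as well, with log2 fold changes of -0.71 to -0.30. Slc30a1 passed the threshold in 7 of the 14 alternatives. Those were edgeR without a filter on low counts, where 1.73% of genes were called lower, DESeq2, each of the 3 tools with the block, which called 1.23% lower in DESeq2 and 4.6% in limma-voom, the block with the length trend removed, and edgeR without high-glucose replicate 1, where 12.4% were called lower. In that last fit the high-glucose group is a single library, and the spread comes from the low-glucose pair and the trend over genes. In edgeR without a filter, and in edgeR and limma-voom with the block, the spread is taken from the trend over genes and not from Slc30a1 itself. The study's methods set the threshold at an unadjusted p of 0.05 together with a log2 fold change beyond 0.58 in size, and by that rule 1 of the 10 genes differed in edgeR without the block, which was Slc30a1, beside 9.95% of all genes.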

How the data were processed

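Reads were trimmed by the authors with fastp, mapped with HISAT2 2.2.1 and assigned to genes by featureCounts. The deposited values are raw counts, given with exonic lengths. The labels name mm10, yet the start matched GENCODE vM21 for 1448 of 52036 shared genes. Totals were 17279505 to 19136068 counts per library. Wilson intervals cover counting error only.

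The quasi-likelihood F test of edgeR 4.0.16 (R 4.3.3) was applied two-sided to the counts, after TMM scaling and the default filterByExpr, with Benjamini-Hochberg adjustment over the 15665 genes kept. SE is the log2 fold change divided by the square root of F. CPM were scaled by the TMM factors, and TPM was computed from counts and exonic length. Alternatives were DESeq2 1.42.0, limma 3.58.1 (voom), other scalings, no filter, each library left out, and removal of a loess trend (span 0.5) on exonic length. Scripts were tested on simulated data.

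The replicate number was read as a pairing. In the methods each mouse gave islets to both glucose levels, but neither they nor the labels say that same-numbered RNA libraries are pairs. Deviations from group means correlated between same-numbered libraries (Pearson r 0.409 across 15665 genes, which are not independent). With the block 1 residual degree of freedom remains, and the spread in edgeR and in limma-voom is taken from the trend over genes. The same holds for edgeR without a filter on low counts, which has no block. BCV, the biological coefficient of variation, was 27.7% unblocked and 20.4% blocked. Where the spread is taken from the trend over genes, p-values rest on a spread shared over genes and not on that of the gene itself. Elsewhere they rest on the gene's spread between libraries together with the trend over genes. In edgeR without the block, 2 residual degrees of freedom stand beside 5.09 from that trend.

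The genes and lists were chosen with earlier results of these data known. Named are the 10 genes, other zinc genes and companion genes past the threshold in edgeR with or without the block, and the 5 nearest genes of Slc30a1, Mt1 and Slc30a8. 1 of these nearest genes is not reported here. Other genes named were chosen after their values were seen. Sequences are from RefSeq on GRCm38.p6.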

Additional observations from a re-analysis of the deposited data

How the results depend on the processing

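The count of genes past the threshold was 0 without a block in edgeR and in limma-voom, 597 without a filter on low counts, 180 in DESeq2, 12 with the length trend removed and 1559 by the study's thresholds. With the replicate block it was 1075 in edgeR, 259 in DESeq2, 970 in limma-voom and 1364 in edgeR corrected for length. Leaving out 1 library gave 5 to 3253. Of the 10 zinc genes, 1 passed without a filter, in DESeq2, by the study's thresholds and in each of the 3 blocked fits, 3 once the blocked fit was also corrected for length, and 0 to 1 with a library left out. Of the other zinc genes, 1 passed in that corrected blocked fit, and 0 to 1 with a library left out. The metallothionein shares without insulin reads were 0.152% and 0.199% in the 25 mM libraries, against 0.182% and 0.225% in the 2.5 mM libraries. With transcript lengths Mt1 stood at 10.01 times Slc30a8 in place of 4.41. The cause of these differences was not tested.

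Signs turned for genes whose log2 fold change was near 0. With the length trend removed, Slc30a7 was 0.39 (0.38 with the block) and Slc39a14 0.22 (0.23 with the block). Without a filter Slc39a8 was -0.012. With a library left out, the ranges were -0.38 to 0.26 for Slc30a8, -0.073 to 0.20 for Slc30a5, -0.13 to 0.13 for Slc30a7, -0.27 to 0.041 for Slc39a6, -0.69 to 0.90 for Slc39a8, -0.39 to 0.076 for Slc39a14, -0.49 to 0.043 for Mt1, -0.12 to 0.20 for Mtf1, -1.55 to -0.87 for Slc30a1 and -0.53 to -0.30 for Mt2. Without a length correction the block changed the call of Slc30a1 and of no other zinc gene in edgeR. In the fit corrected for length, adding the block also changed the calls of Mt2 (adjusted p = 0.344 without it), Mt1 (0.529) and Slc30a9 (0.454). Fits that leave out a library hold 1 group of a single library, whose spread is assumed to equal that of the other pair. The spread in these fits also draws on the trend over genes, and without a low-glucose library it is taken from that trend.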
